A study of Mus musculus with 18 samples.

Results

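Counts of 7 mouse genes of placenta and milk were examined in RAS-expressing fibroblasts: Prl2c2, Prl2c3 and Prl2c5 (proliferins), Prl3d1, Prl3d2 and Prl3d3 (placental lactogen I) and Csn3 (kappa-casein). They were taken by symbol from the 55401 identifiers of the count table, and they had been listed because earlier results of these data showed them higher with RAS. That rise is therefore given below as a description, and the counts of calls beside it are not a test of it. All 7 were found, each with 1 identifier.

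The study asked how S6 kinases bear on senescence induced by oncogenic RAS in primary mouse embryonic fibroblasts (MEFs). RNA-seq counts covered 18 libraries in 6 groups of 3. In the S6K1 series, the groups were S6K1 WT with empty vector (EV), S6K1 WT with RAS and S6K1 KO with RAS. In the S6K1/S6K2 series, they were S6K1/S6K2 WT with EV, S6K1/S6K2 WT with RAS and S6K1/S6K2 DKO with RAS. All cells were MEFs prepared from mid-gestation embryos after removal of head and viscera, infected with a retrovirus carrying an active HRAS mutant or no insert, and drug-selected. By the study's methods the S6K1 WT and KO embryos were littermates, whereas the WT controls of the DKO cells came from separate mothers of an earlier breeding stage, so line and genotype cannot be told apart there. No KO or DKO library with empty vector was analysed here, so loss of the kinases was compared only among RAS libraries. By the same methods the MEFs of the RAS experiment came from independent pairs of embryos of different mothers, but which library belongs to which mother is not given.

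Prolactin-family genes of the mouse form large clusters on chromosome 13, and most are hormones of the placenta. Proliferins were discovered in growth-stimulated cultured fibroblasts and act as angiogenic placental hormones that bind the mannose-6-phosphate/IGF2 receptor. Placental lactogen I is secreted by trophoblast giant cells and signals through the prolactin receptor, JAK2 and STAT5. Kappa-casein is a milk protein that stabilises casein micelles and is normally made by mammary luminal cells, where prolactin induces it.

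Total counts ranged from 8319445 to 14402442 per library, and levels are given as CPM, counts scaled to the normalised library size. The log2 fold change of mouse Hras with RAS was 0.93 (SE 0.14, edgeR adjusted p = 0.0029) in S6K1 and 0.75 (SE 0.15, edgeR adjusted p = 0.00568) in S6K1/S6K2 libraries. Whether reads of the viral HRAS mutant were counted at this gene was not tested. Rps6kb1, which encodes S6K1, was at 70.7 ± 5.91 CPM (SD, n = 3) in S6K1 WT RAS and 30.9 ± 6.86 in S6K1 KO RAS, without overlap, and its log2 fold change of -1.17 (SE 0.17) had an edgeR adjusted p of 0.234, or 0.000101 with the replicate number as a block. It fell by 1.11 on the log2 scale in S6K1/S6K2 DKO RAS (SE 0.11, edgeR adjusted p = 0.00908), and Rps6kb2, which encodes S6K2, fell by 3.18 (SE 0.17, edgeR adjusted p = 7.44e-05). The fibroblast markers summed to between 23340 and 54960 CPM in every library. All 14 macrophage markers were also detected in most libraries, and their summed level ranged from 72.7 to 3910 CPM. Of all replicate pairs, none agreed within sampling noise, where chi-square divided by its degrees of freedom was at least 8.62.

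The members of each family are nearly the same gene. Between the longest protein-coding transcripts, Prl2c2 and Prl2c3 were 99.5% identical over 850 aligned bases, Prl2c2 and Prl2c5 96.7% over 843, and the Prl3d pairs 98.3% to 98.5%. A Prl2c3 transcript and a Prl3d1 transcript were 63.3% identical. Of the windows of 50 bases, the read length of the libraries, 88.5% in Prl2c2, 79.2% in Prl2c3 and 24.1% in Prl2c5 occurred exactly in a transcript of another gene. The shares were 57.2% in Prl3d1, 62.5% in Prl3d2 and 68.4% in Prl3d3, and 0 of 1547 windows in Csn3. How reads with several matches were counted is not given in the sources used here, so the split within a family and the levels of these genes against Csn3 are uncertain. The sums of Prl2c2, Prl2c3 and Prl2c5 (the Prl2c sum) and of Prl3d1, Prl3d2 and Prl3d3 (the Prl3d sum) are therefore given beside the single genes.

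In the NCBIM37 annotation, matched by gene identifier, Prl2c3 (ENSMUSG00000056457) lies at chr13:12883089-12892345 and Prl2c2 (ENSMUSG00000079092) at chr13:13088393-13097659, both on the minus strand. Prl2c5 (ENSMUSG00000055360) lies at chr13:13274982-13284190 on the plus strand. Further along the chromosome, Prl3d1 (ENSMUSG00000057170) lies at chr13:27186081-27192124, Prl3d2 (ENSMUSG00000062737) at chr13:27213548-27219415 and Prl3d3 (ENSMUSG00000062201) at chr13:27248659-27254459, all on the plus strand and inside a cluster of 23 prolactin-family genes. Csn3 (ENSMUSG00000001622) lies at chr5:88354604-88361690 on the plus strand, beside the other casein genes.

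The promoters of the paralogs are shown because the members rose together and because AP-1 and GATA factors are known activators of the placental lactogen I promoter in trophoblast cells. RefSeq windows from 250 bases before to 50 bases after the start, in GRCm38.p6, were matched for 5 of the 7 members, all but Prl2c2 and Csn3. The windows of 4 are printed in the direction of the gene (that of Prl3d3, nearly the same as that of Prl3d2, is left out), with matches to the AP-1 letters TGANTCA and the GATA letters GATAA on either strand in capitals.
Prl3d1 (chr13:27093939-27094238, plus strand): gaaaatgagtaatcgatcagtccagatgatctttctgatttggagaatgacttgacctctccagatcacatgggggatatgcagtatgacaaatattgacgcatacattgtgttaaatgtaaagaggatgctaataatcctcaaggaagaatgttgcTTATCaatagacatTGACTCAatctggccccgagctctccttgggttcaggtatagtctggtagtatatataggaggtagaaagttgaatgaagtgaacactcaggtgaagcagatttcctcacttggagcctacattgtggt
Prl3d2 (chr13:27121445-27121744, plus strand): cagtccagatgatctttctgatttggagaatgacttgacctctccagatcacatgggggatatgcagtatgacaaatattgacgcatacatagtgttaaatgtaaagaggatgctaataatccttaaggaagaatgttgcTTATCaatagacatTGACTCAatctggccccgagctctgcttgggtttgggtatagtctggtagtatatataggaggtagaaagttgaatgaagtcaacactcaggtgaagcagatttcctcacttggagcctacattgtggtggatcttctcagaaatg
Prl2c3 (chr13:12800030-12800329, minus strand): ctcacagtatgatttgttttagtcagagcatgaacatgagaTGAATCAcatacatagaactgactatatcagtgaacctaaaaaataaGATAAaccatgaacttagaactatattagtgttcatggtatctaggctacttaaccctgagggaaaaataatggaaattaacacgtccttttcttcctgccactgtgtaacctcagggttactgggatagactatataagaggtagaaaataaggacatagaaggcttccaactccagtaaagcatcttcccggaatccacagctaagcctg
Prl2c5 (chr13:13182466-13182765, plus strand): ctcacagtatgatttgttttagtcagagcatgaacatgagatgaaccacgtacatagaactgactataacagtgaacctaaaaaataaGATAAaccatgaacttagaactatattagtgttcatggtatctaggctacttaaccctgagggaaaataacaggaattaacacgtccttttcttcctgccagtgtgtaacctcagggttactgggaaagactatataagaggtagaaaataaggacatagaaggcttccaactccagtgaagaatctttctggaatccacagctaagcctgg

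Prl3d1, Prl3d2, Prl3d3 and Prl2c3 each had 1 match to the AP-1 letters and Prl2c5 had 0. In Prl3d1 that match began 79 bases before the start, with a GATA match 93 bases before it, and the pair stood at the same spacing in Prl3d2 and Prl3d3. All 5 windows held 1 GATA match. Of the 32851 promoter windows of the table, 7.81% held the AP-1 letters and 25.4% the GATA letters. The STAT5 letters TTCNNNGAA, found in 8.3% of windows, occurred once each in Prl2c3, Prl3d2 and Prl3d3, where they lay after the start, and not in Prl3d1 or Prl2c5. The windows were 96% identical between Prl2c3 and Prl2c5, 97.9% between Prl3d1 and Prl3d2, and 99.7% between Prl3d2 and Prl3d3. These are letter matches, and binding of a factor was not measured.

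With RAS, all 7 members stood above the few counts or none of the EV libraries in both series, though Prl2c5 reached only 5, 5 and 4 counts in S6K1 WT RAS. Per kilobase of transcript, Csn3, Prl3d2 and Prl3d3 reached the highest levels. Because the members were listed for this contrast, edgeR calls are given only as counts. Near 0 with EV, the members could pass the filter only through RAS libraries. Calls of higher and a separation from EV could therefore hardly come out otherwise, and they are no support for the rise. In the S6K1 series 6 of the 7 passed the filter on low counts, all but Prl2c5, and 6 of those 6 were called higher where 7.15% of all genes were, and 0 lower where 6.09% were. All 7 were called higher in the S6K1/S6K2 series where 13.5% of all genes were, and 0 lower where 12.7% were. The RAS and EV libraries did not overlap for any of the 7 in either series, a separation in the upward direction shared by 16.1% and 21% of tested genes, and in the downward direction by 14.7% and 21.5%.

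**Figure D1:**
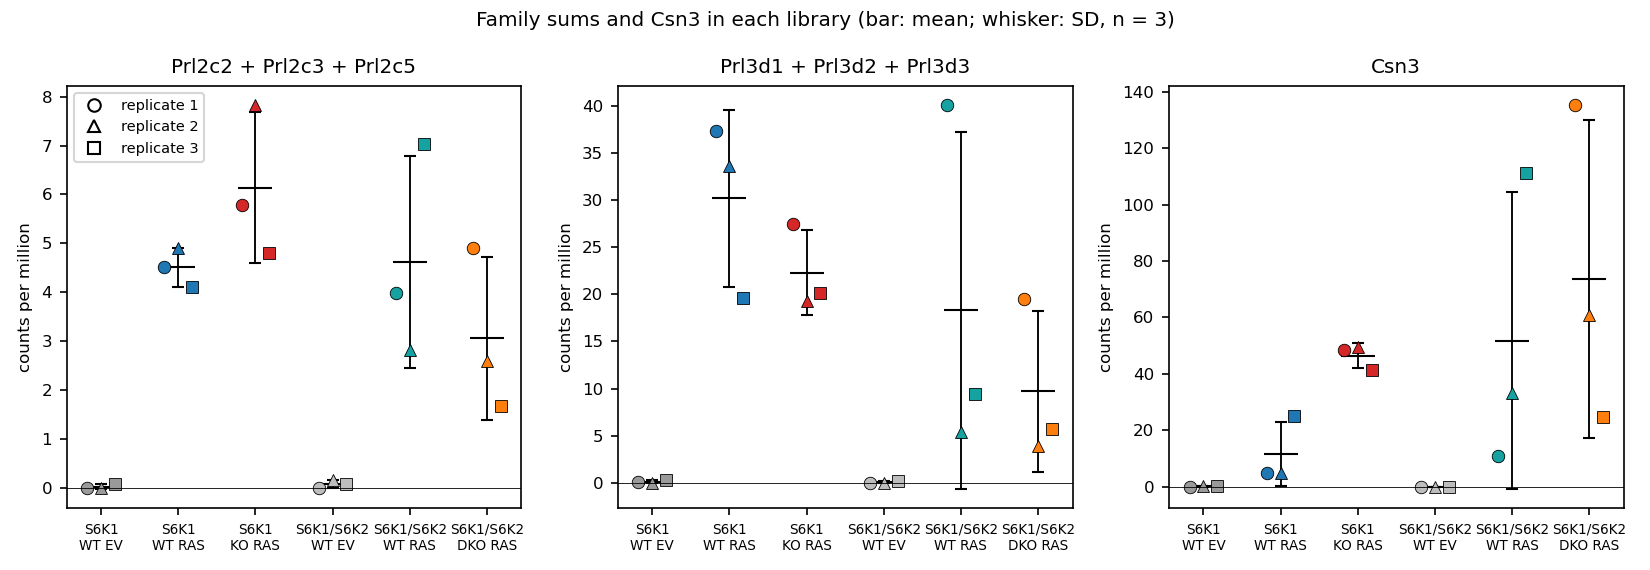
Level of the Prl2c sum, the Prl3d sum and Csn3 in each of the 18 libraries, in CPM on linear axes. Points are libraries, with the replicate number as symbol, and bars and whiskers are the group mean and SD (n = 3). EV libraries lie at 0.276 or below in all 3 panels, and Csn3 in RAS libraries spreads from 4.97 to 135.

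The proliferins were counted as follows. Prl2c3 had 0 counts in all 6 EV libraries. In S6K1 WT RAS it had 34, 42 and 31 counts (2.96 ± 0.443 CPM, SD, n = 3), and in S6K1/S6K2 WT RAS 17, 4 and 42 (2.03 ± 1.69). Against a floor of 3 counts over the EV group this is at least 37.7-fold higher in the S6K1 series and at least 25.3-fold higher in the S6K1/S6K2 series. Every EV library was below every RAS library, and the S6K1/S6K2 WT RAS libraries spread more widely than the S6K1 WT RAS libraries.

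Prl2c2 had 0, 0 and 1 counts in S6K1 WT EV and 12, 14 and 16 in S6K1 WT RAS. That is 44.4-fold higher, with a 95% counting interval of 7.54 to 1790. The S6K1/S6K2 libraries had 0, 2 and 1 counts with EV and 10, 9 and 19 with RAS, which is 15.3-fold higher (4.85 to 77.4). Counting intervals and floors cover counting error only, not the spread between libraries. Prl2c5, the third proliferin, had 0 counts in EV libraries, 5, 5 and 4 in S6K1 WT RAS and 11, 11 and 16 in S6K1/S6K2 WT RAS. Its bounds were at least 4.93-fold and at least 15.3-fold higher.

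The Prl2c sum was 0.0307 ± 0.0531 CPM in S6K1 WT EV and 4.51 ± 0.399 in S6K1 WT RAS (SD, n = 3). It was 172-fold higher (30.5 to 6840) there and 55.9-fold higher (18.7 to 274) in the S6K1/S6K2 series, where it went from 0.0865 ± 0.0868 to 4.61 ± 2.17 CPM. With EV at 1 and 3 counts, single EV libraries moved these folds: without replicate 1, 2 or 3 of S6K1 WT EV the first was 109-fold, 112-fold or at least 41-fold, and the second was 37-fold without S6K1/S6K2 WT EV replicate 1 and 112-fold without replicate 2. The RAS levels of the sum overlapped between the series. The difference of the RAS effects between the series was -1.33 on the log2 scale (SE 1.30, edgeR adjusted p = 0.661), which does not show that they are alike.

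Of the placental lactogen I genes, Prl3d2 was the most abundant, with 1, 0 and 3 counts in S6K1 WT EV and 228, 215 and 160 in S6K1 WT RAS (16.8 ± 3.69 CPM, SD, n = 3), 159-fold higher (61.9 to 586). The S6K1/S6K2 libraries had 0, 0 and 2 counts with EV and 172, 29 and 67 with RAS (9.2 ± 7.81 CPM), 162-fold higher (44.3 to 1340). The first S6K1/S6K2 WT RAS library stood well above the other two, and without it the fold was 86.2. Over single libraries left out, the fold in the S6K1 series was 104 to 455, without S6K1 WT EV replicates 2 and 3.

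Prl3d3 had 0 counts in all 6 EV libraries, 128, 130 and 59 in S6K1 WT RAS and 147, 10 and 23 in S6K1/S6K2 WT RAS, at least 112-fold and at least 72.4-fold higher. Prl3d1 also had 0 counts in all 6 EV libraries, with 65, 73 and 24 in S6K1 WT RAS and 62, 7 and 13 in S6K1/S6K2 WT RAS, at least 57-fold and at least 33-fold higher. All 3 genes were lowest in replicate 3 of S6K1 WT RAS and highest in replicate 1 of S6K1/S6K2 WT RAS.

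The Prl3d sum stood at 37.3, 33.6 and 19.6 CPM in S6K1 WT RAS and at 40.1, 5.41 and 9.39 CPM in S6K1/S6K2 WT RAS. With EV the highest library was at 0.276 CPM. The sum was 286-fold higher (111 to 1050) in the S6K1 series and 320-fold higher (88.1 to 2650) in the S6K1/S6K2 series. Without S6K1 WT EV replicate 2 or 3 the first fold was 187 or 817. The second was 134 when S6K1/S6K2 WT RAS replicate 1 was left out, and leaving out S6K1/S6K2 WT EV replicate 1 or 3 gave 212 or at least 142. The RAS effects of the sum differed between the series by 0.05 on the log2 scale (SE 0.90, edgeR adjusted p = 0.984) and the sign of this value turned when single libraries were left out.

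Csn3 had 1, 3 and 1 counts in S6K1 WT EV, and 56, 62 and 309 in S6K1 WT RAS (11.6 ± 11.5 CPM, SD, n = 3), 90.2-fold higher (38.4 to 279). All 3 S6K1/S6K2 WT EV libraries had 0 counts, and the RAS libraries 105, 281 and 1218 (51.7 ± 52.6 CPM), at least 645-fold higher. The third replicate was the highest of the WT RAS libraries in both series, and the SD was as large as the mean. Without it the folds were 38 and at least 250, and the first was 147 without S6K1 WT EV replicate 2. With EV at 0 in the second series, a difference of the RAS effects on Csn3 is not reported.

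Per kilobase of the longest transcript, Csn3, Prl3d2 and Prl3d3 took the top 3 ranks in every RAS group. The order of Csn3 against the Prl genes may depend on how reads with several matches were counted, which is not given. In S6K1 WT RAS, Prl3d2 led at 19.9 ± 4.37 CPM per kb, followed by Prl3d3 at 10.4 ± 4.20 and Csn3 at 7.28 ± 7.21 (SD, n = 3). Csn3 overlapped with both, and Prl3d2 and Prl3d3 did not overlap. In S6K1/S6K2 WT RAS, Csn3 led at 32.4 ± 32.9, Prl3d2 followed at 10.9 ± 9.25 and Prl3d3 at 7.32 ± 9.37, and these ranges overlapped. Prl3d1, Prl2c3, Prl2c2 and Prl2c5 took the ranks below, with Prl2c5 lowest at 0.401 ± 0.0634 and 1.34 ± 0.156 CPM per kb.

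With loss of S6K1 or of both kinases the group mean of every member stayed above that of EV, but single libraries came down to the EV level or the floor. Prl2c2 had 2 counts in S6K1/S6K2 DKO RAS replicate 3, as in S6K1/S6K2 WT EV replicate 2. Prl2c5 had 1 count in S6K1 KO RAS replicate 3, below the floor of 3 counts. The S6K1 KO RAS libraries held the Prl3d sum 210-fold (81.8 to 774), the Prl2c sum 237-fold (42 to 9390) and Csn3 355-fold (152 to 1090) above S6K1 WT EV. In S6K1/S6K2 DKO RAS the Prl3d sum was 168-fold (46 to 1390), the Prl2c sum 35.1-fold (11.7 to 173) and Csn3 at least 839-fold above S6K1/S6K2 WT EV. In these comparisons loss and RAS changed together, so the comparisons do not separate them.

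The comparison with the WT RAS libraries asks what loss of the kinases changed among cells that all carried RAS. No member was called by edgeR in S6K1 KO against S6K1 WT, where 1 of 14036 genes was (0% of all genes higher, 0.00712% lower), and DESeq2 called 0 members as well, against 0.449% of all genes. At an unadjusted p under 0.05 there was 1 of the 6 tested, Csn3, against 6.86% of all genes. In S6K1/S6K2 DKO against WT, edgeR and DESeq2 called 0 of 7 members, where edgeR called 0.0072% of all genes higher and 0.0144% lower and DESeq2 0.072% in either direction. At an unadjusted p under 0.05 there were 0 members, against 1.29% of all genes. In S6K1 KO the median log2 fold change of the 6 tested members was 0.04 and that of all tested genes 0.03. In DKO it was -0.89 for 7 members against -3e-04 for all genes, with 6 of 7 below 0. Those 6 are near-identical within their families, so they do not count as 6 separate results. With single libraries left out, Prl2c3, Prl3d2 and Prl3d3 turned and reached 0.56, 0.36 and 0.66.

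**Figure D2:**
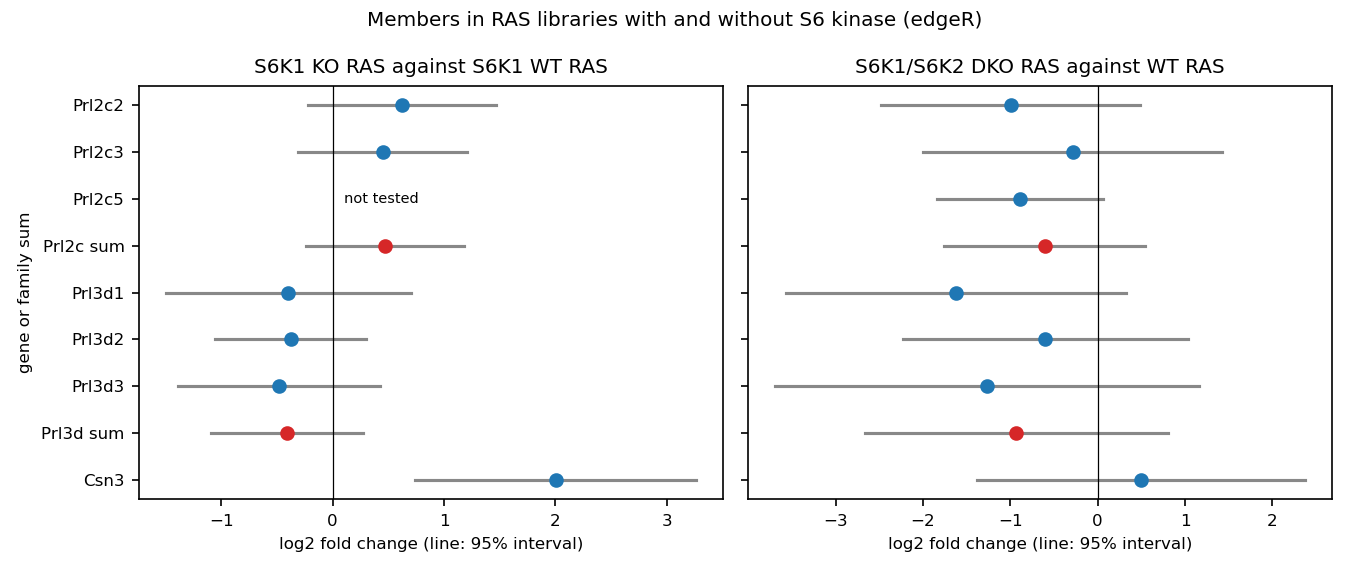
Log2 fold change of each member and family sum in KO against WT RAS libraries (left) and DKO against WT RAS libraries (right) on separate axes, with 95% intervals from edgeR. Blue points are genes and red points family sums, and Csn3 in S6K1 KO, at 2.0, is the only point whose interval of 0.74 to 3.26 leaves out 0.

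Csn3 was higher in S6K1 KO RAS than in S6K1 WT RAS in every library. The KO libraries had 529, 644 and 490 counts (48.6, 49.4 and 41.4 CPM, mean 46.4 ± 4.43, SD, n = 3), against 4.97, 4.99 and 24.9 CPM in the WT libraries. The groups did not overlap, which in this direction held for 3.34% of all tested genes and in the other, shown by 0 members, for 4.61%. The log2 fold change was 2.0 (SE 0.56) with an edgeR adjusted p of 0.587 and an unadjusted p of 0.00566, so the difference did not pass the threshold. With the replicate number as a block, a pairing that these libraries bear out, it was 2.28 (SE 0.43, edgeR adjusted p = 0.0164), and 0.549% of all genes were called higher and 3.61% lower in that fit. No member was called lower. By replicate number the KO library was 9.78, 9.9 and 1.66 times the WT library. S6K1 WT RAS replicate 3 lay nearest to the KO libraries, and without it the log2 fold change was 3.26 (edgeR adjusted p = 0.00169). With any other single library left out, the difference did not pass the threshold.

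Macrophage markers moved with this comparison. Their summed level in S6K1 WT RAS was 3910, 3498 and 738 CPM, and in S6K1 KO RAS 874, 681 and 249 CPM. With the replicate block edgeR called all 14 lower in S6K1 KO RAS. Without it edgeR called 0 and DESeq2 2, and 14 had an unadjusted p under 0.05. The median log2 fold change of the 14 was -2.25. Mrc1, a mannose receptor of macrophages, fell by 2.92 on the log2 scale with the block (SE 0.15, edgeR adjusted p = 1.07e-05), and Csf1r, the receptor of the macrophage growth factor, fell by 2.16 (SE 0.13, edgeR adjusted p = 1.71e-05). Fewer macrophages and less RNA per macrophage cannot be told apart in bulk samples. Among the S6K1 WT RAS libraries, Csn3 was highest where these markers were at 738 CPM, their lowest. In S6K1/S6K2 WT RAS, Csn3 was highest, at 111 CPM, where they were at 255 CPM. The library with the fewest, at 176 CPM, had 33.1 CPM of Csn3. The part of the macrophage markers in the Csn3 difference was not tested.

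In S6K1/S6K2 DKO RAS, Csn3 had 1377, 610 and 281 counts, or 135, 61 and 24.8 CPM (73.7 ± 56.3, SD, n = 3), against 11, 33.1 and 111 CPM in S6K1/S6K2 WT RAS. The groups overlapped. The log2 fold change was 0.50 (SE 0.81, 95% interval -1.38 to 2.38, edgeR adjusted p = 1), and it turned to -0.28 without S6K1/S6K2 DKO RAS replicate 1. The difference of the loss effects between the series was -1.49 (SE 1.07, edgeR adjusted p = 1), and edgeR called 0.0069% of all genes lower and 0% higher for this difference. The KO and DKO results for Csn3 were thus not shown to differ.

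The Prl3d sum was lower on average with loss of the kinases in both series, and neither difference passed the test. In S6K1 KO RAS it was at 27.4, 19.3 and 20.1 CPM, which overlapped the S6K1 WT RAS values, with a log2 fold change of -0.41 (SE 0.30, 95% interval -1.09 to 0.27, edgeR adjusted p = 0.997). The DKO libraries were at 19.5, 3.9 and 5.66 CPM, with a log2 fold change of -0.93 (SE 0.78, 95% interval -2.67 to 0.80, edgeR adjusted p = 1). Without S6K1/S6K2 WT RAS replicate 1 that value was 0.38. The 3 genes had log2 fold changes of -0.40, -0.38 and -0.48 in KO and of -1.63, -0.60 and -1.27 in DKO for Prl3d1, Prl3d2 and Prl3d3.

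The Prl2c sum went in opposite directions in the series, within error. It was at 5.78, 7.82 and 4.81 CPM in S6K1 KO RAS, a log2 fold change of 0.47 (SE 0.31, 95% interval -0.24 to 1.18, edgeR adjusted p = 0.997). The DKO libraries were at 4.91, 2.6 and 1.68 CPM for the same sum, a log2 fold change of -0.61 (SE 0.51, 95% interval -1.76 to 0.54, edgeR adjusted p = 1). The difference of the loss effects was -1.05 (SE 0.63, edgeR adjusted p = 1), not past the threshold.

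Among single proliferins, Prl2c2 was higher in each S6K1 KO RAS library (19, 22 and 22 counts) than in each S6K1 WT RAS library, with a log2 fold change of 0.62 (SE 0.37, edgeR adjusted p = 0.953). With Csn3 it made 2 of 7 members whose KO libraries all lay above the WT libraries, an upward separation that 3.34% of all tested genes had, against 4.61% downward. Prl2c5 was lower in each S6K1/S6K2 DKO RAS library (6, 9 and 7 counts) than in each S6K1/S6K2 WT RAS library, with a log2 fold change of -0.89 (SE 0.41, edgeR adjusted p = 1). It was the only 1 of 7 members without overlap there, a downward separation that 2.79% of all tested genes had, against 3.36% upward. Prl2c3 overlapped in both comparisons, with log2 fold changes of 0.45 (SE 0.32) in KO and -0.28 (SE 0.74) in DKO. By replicate number the S6K1 KO library was 1.19, 1.61 and 1.15 times the WT library for Prl2c3, and the Prl2c sum was also higher in KO for each of the 3 numbers. With the block neither was called (edgeR adjusted p = 0.399 and 0.321).

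Over the 12 RAS libraries the Prl3d sum and Csn3 varied in opposite directions. Pearson's r of the log2 levels was -0.498 and Spearman's rho -0.573, r without the 2 libraries farthest from the median of the Prl3d sum was -0.531, and within the series of 6 libraries each it was -0.824 and -0.243. The Prl2c sum and the Prl3d sum had an r of 0.584 and a rho of 0.259, with r at 0.16 without the 2 farthest libraries, -0.277 within the S6K1 series and 0.523 within the S6K1/S6K2 series. The Prl2c sum and Csn3 had an r of 0.176 and a rho of 0.42, and r was 0.377 without the 2 farthest and 0.502 and 0.509 within the series. These values describe libraries that share groups and lines and carry no test.

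The Prl3d sum followed the macrophage marker sum across the RAS libraries. Pearson's r was 0.873 and Spearman's rho 0.895 over 12 libraries, 0.892 without the 2 farthest, and 0.888 and 0.922 within the S6K1 and S6K1/S6K2 series. Csn3 against the macrophage marker sum had an r of -0.724 (rho -0.58), which was -0.33 without the 2 farthest libraries, and -0.89 and -0.383 within the series. The EV libraries held macrophage markers at 157 to 3284 CPM, against 176 to 3910 CPM in WT RAS libraries, while the Prl3d sum there was at most 0.276 CPM. Replicate 1 of S6K1 WT EV, with 3284 CPM of macrophage markers, had 1 count of Prl3d2 and 0 of Prl3d1 and Prl3d3. The part of the macrophage markers in the spread of the Prl3d sum among RAS libraries was not tested.

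**Figure D3:**
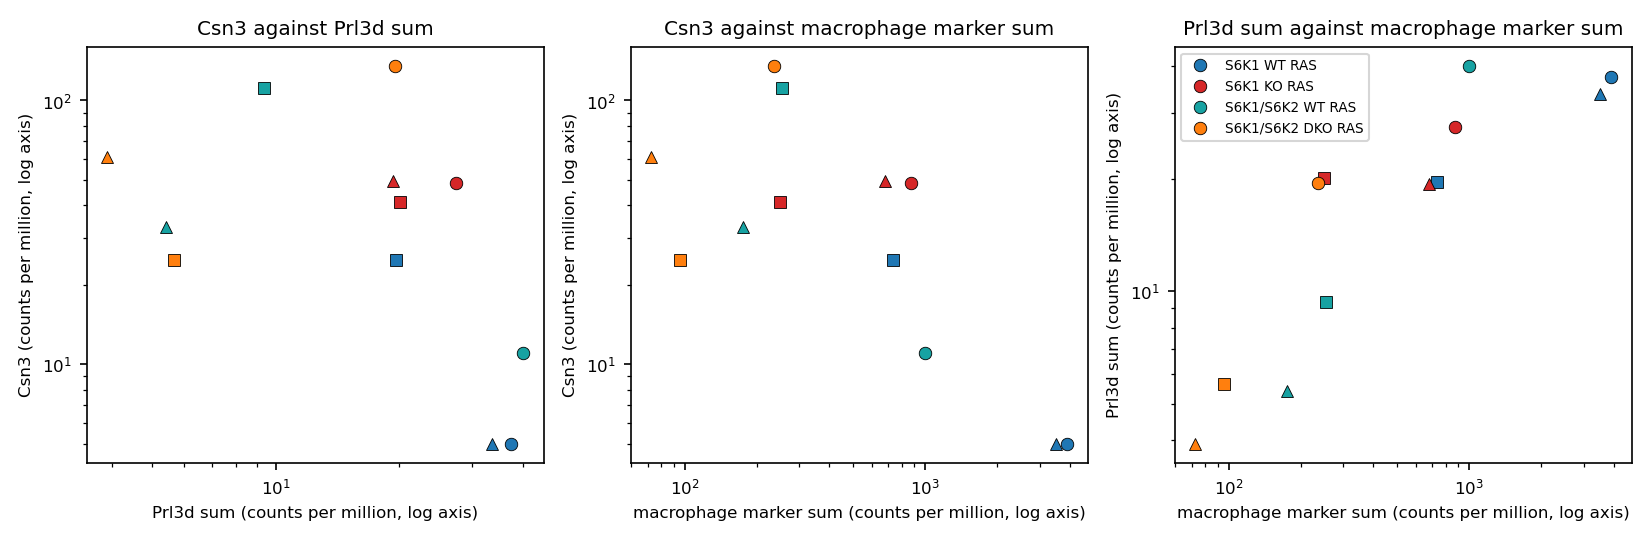
Csn3 against the Prl3d sum (left), Csn3 against the summed macrophage markers (middle) and the Prl3d sum against the summed macrophage markers (right) in the 12 RAS libraries, in CPM on log axes. Colour gives the group and the symbol the replicate number (circle 1, triangle 2, square 3). The Prl3d sum climbs with the macrophage markers (r = 0.873), and Csn3 is lowest, at 4.97 and 4.99, in the 2 libraries with the most macrophage markers.

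Genes whose log2 CPM over all 18 libraries was most like that of the members are given as a description. For Csn3 these were Klhl2 (r = 0.984), Tspan7, Slc20a2, Spred2, an inhibitor of RAS to ERK signalling, and Gprc5b (r = 0.972). For the Prl2c sum they were Btn1a1 (r = 0.98), which encodes a protein of the milk fat globule membrane, Add2, Calcb, Kcnh1 and Fam78b (r = 0.974). For the Prl3d sum they were 1600029D21Rik (r = 0.979), Rnf183, Mmp1a, an interstitial collagenase, Chrna1 and the simple-epithelium keratin gene Krt8 (r = 0.97). The 18 libraries include the step from EV to RAS, so these values do not rest on variation among RAS libraries alone.

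Of the other 20 prolactin-family genes, 13 had more than 10 counts over the 18 libraries and 7 had 10 or fewer, among them Prl3b1, the gene of placental lactogen II, with 0 counts. With RAS, edgeR called 3 of the 4 tested genes higher in the S6K1 series, where 7.15% of all genes were. In the S6K1/S6K2 series it called 2 of 2, where 13.5% of all genes were. The called genes were near 0 with EV and passed the filter on low counts through RAS libraries, so they could hardly be called lower. The medians of the tested genes were 4.86 and 6.81 (4.45 and 5.36 with genes at 0 in EV set to their bound). In S6K1 WT RAS the Prl3d sum made up 71.6%, 54% and 57.3% and the Prl2c sum 8.67%, 7.88% and 12% of the prolactin-family counts of a library, so the members held most of them. In S6K1/S6K2 WT RAS the Prl3d shares were 78.9% (95% exact binomial interval 75 to 82.4), 29.9% (22.8 to 37.8) and 27.2% (22.8 to 32). With the Prl2c sum added the members held 86.7% in replicate 1, but 45.5% and 47.5% in the other libraries. Pooled, the Prl3d share was 52.2% of 1016 counts there, and 28% without replicate 1.

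Prl6a1 had 2, 1 and 2 counts in S6K1 WT EV and 26, 51 and 40 in S6K1 WT RAS, a log2 fold change of 4.49 (SE 0.47, edgeR adjusted p = 0.000487). With EV it had 0 counts in the S6K1/S6K2 libraries, and with RAS 33, 45 and 107, at least 74.4-fold higher. At 6.17 CPM there, its mean was above that of the Prl2c sum. Prl8a9 rose from 0, 2 and 3 counts to 52, 115 and 31 in the S6K1 libraries (5.23 on the log2 scale, SE 0.79, edgeR adjusted p = 0.00277) and from 0, 0 and 4 to 15, 25 and 49 in the S6K1/S6K2 series (4.57, SE 0.84, edgeR adjusted p = 0.00436). Both genes lie in the same cluster as Prl3d1. Neither overlapped between EV and RAS, an upward separation that 16.1% and 21% of tested genes had. Near 0 with EV, these 2 genes could hardly come out otherwise.

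Prl2c1 had 0 counts in all EV libraries and 15, 38 and 6 in S6K1 WT RAS, at least 20.8-fold higher. With 13 counts in S6K1/S6K2 WT RAS it was not tested there. Summing every identifier whose symbol begins with Prl2c gave log2 fold changes for loss of 0.30 in KO and -0.63 in DKO. Prl3a1 went the other way in the S6K1 series without passing the test, at 1.26 ± 0.243 CPM with EV and 0.596 ± 0.542 with RAS (SD, n = 3, log2 fold change -1.06, SE 0.69, edgeR adjusted p = 0.375). Prl itself, the pituitary hormone gene, had 8 counts in S6K1 WT EV and 5 in S6K1 WT RAS. In the S6K1/S6K2 series Prl3a1 had 10 counts with EV and 12 with RAS in WT cells, and Prl had 0 and 8.

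The remaining 8 genes with more than 10 counts were too low for the filter. Prl7b1 had 2 counts over S6K1 WT EV and 36 over S6K1 WT RAS, Prl2a1 had 0 and 34, and Prl8a8 had 1 and 24. Prl5a1 had 0 and 13, Prl8a6 0 and 12, Prl7a2 0 and 7, Prl4a1 0 and 4, and Prl7c1 0 and 2. In the S6K1/S6K2 series Prl8a8 had 2 counts with EV and 13 with RAS, Prl4a1 0 and 12, Prl2a1 0 and 5, Prl7b1 1 and 3, and Prl8a6 1 and 1, while Prl5a1, Prl7a2 and Prl7c1 each had 0 and 1. With RAS, all of these but Prl7c1 were above the floor of 3 counts in the S6K1 series, and only Prl8a8, Prl4a1 and Prl2a1 in the S6K1/S6K2 series, without a test. Loss of the kinases called 0 of the 4 and 0 of the 2 tested genes by edgeR and by DESeq2, with 0 at an unadjusted p under 0.05.

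**Figure D4:**
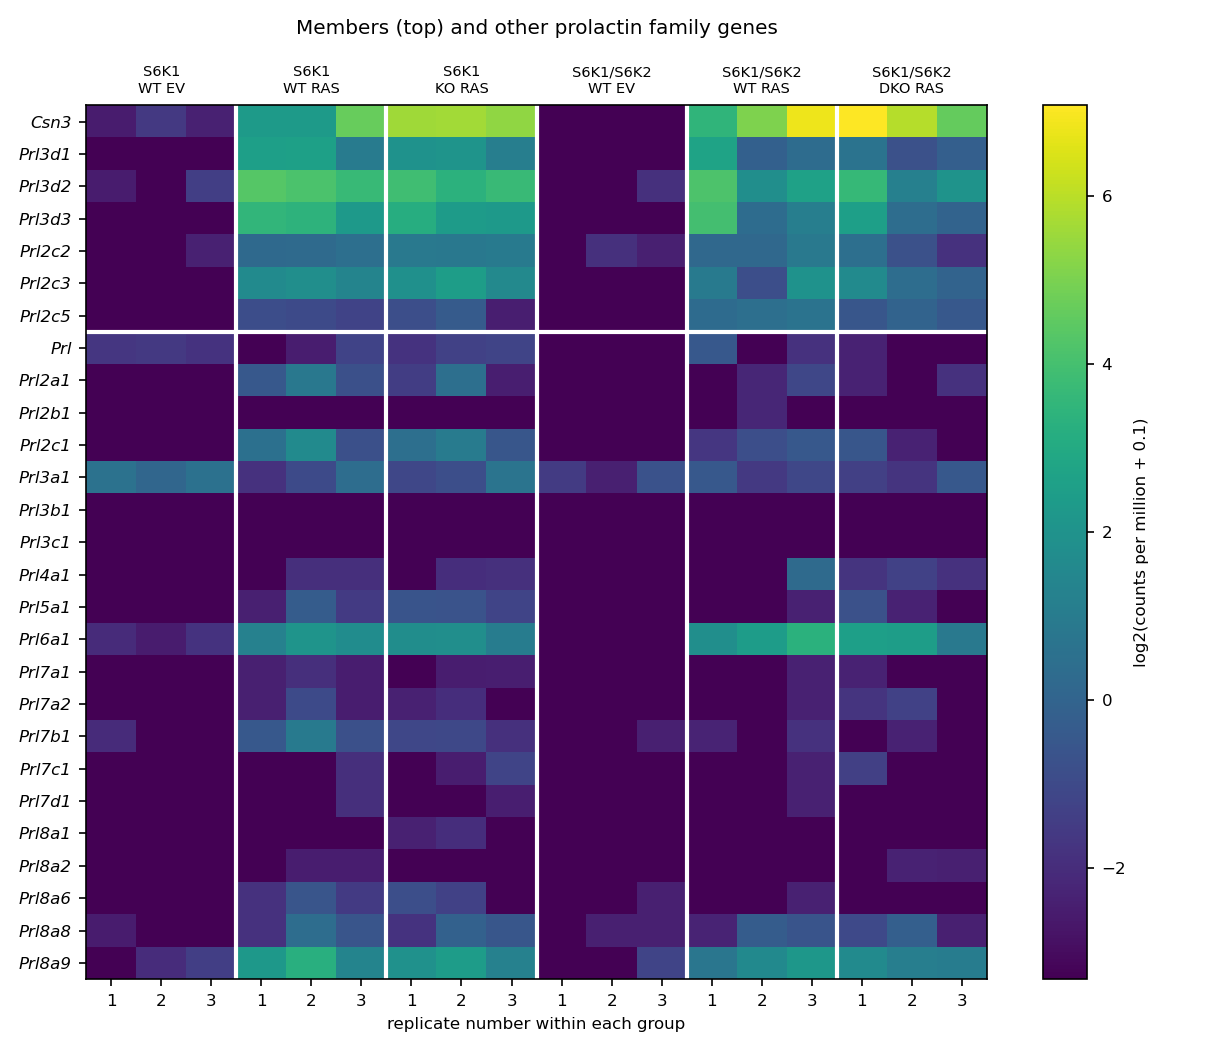
Level of the 7 members (top block) and the other 20 prolactin-family genes in each library, as log2(CPM + 0.1), with libraries grouped by genotype and vector. The darkest colour is 0 counts. RAS groups are brighter than EV groups for all 7 members and for Prl6a1 and Prl8a9, while Prl3b1 and Prl3c1 are at 0 throughout.

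Of 15 other milk genes, 5 passed the filter in each series. EdgeR called 2 of them higher in the S6K1 series (7.15% of all genes) and 3 in the S6K1/S6K2 series (13.5%). Btn1a1 had 0 counts in S6K1 WT EV and 440 in S6K1 WT RAS (12 ± 4.84 CPM), and 1 and 253 counts in the S6K1/S6K2 series. Near 0 with EV, it could pass the filter only through RAS libraries, so its calls are no test of the rise. Plin2, which coats lipid droplets, rose by log2 fold changes of 1.30 (SE 0.23) and 1.68 (SE 0.28). Xdh, needed for milk fat secretion, rose by 2.34 (SE 0.32) in the S6K1/S6K2 series and had a log2 fold change of 0.88 in the S6K1 series, called only with the block (edgeR adjusted p = 0.0004). The block also called Mfge8 lower in the S6K1 series (log2 fold change -0.37) and Xdh lower in S6K1 KO RAS (log2 fold change -0.53, edgeR adjusted p = 0.0396). In the latter it called 0.549% of all genes higher and 3.61% lower. With RAS in the S6K1 series the block called far more of all genes than the fit without it. Such block calls, here and in the lists below, thus do not single these genes out. The other caseins were near 0, with 0 counts of Csn2 and Csn1s2a in all 18 libraries, 1 count of Csn1s2b and 16 of Csn1s1, of which 10 were in S6K1/S6K2 DKO RAS (at most 0.530 CPM in a library). Wap and Lalba, which encode whey proteins, had 0 counts in all libraries. The medians of the tested genes were 0.88 and 1.68, beside 0.00 and -0.02 for all genes.

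The genomic neighbours of the members differed between loci. Within 500 kb of Csn3 on either side, only Sult1e1, an estrogen sulfotransferase, passed the filter. It rose with RAS by log2 fold changes of 3.82 (SE 0.64, edgeR adjusted p = 0.00467) and 3.29 (SE 0.71, edgeR adjusted p = 0.00915), and its values with loss were 1.46 (SE 0.42, edgeR adjusted p = 0.587) in KO and 0.89 (SE 0.55, edgeR adjusted p = 1) in DKO. Over the 12 RAS libraries Sult1e1 and Csn3 had an r of 0.813 and a rho of 0.832, 0.696 without the 2 farthest, and 0.77 and 0.878 within the series. Around the Prl2c genes 6 neighbours were tested, with 0 called in the S6K1 series and 3 higher in the S6K1/S6K2 series (Ero1lb at 0.88, Gpr137b at 1.04 and Nid1 at 0.91, as log2 fold changes). Called higher and lower were 7.15% and 6.09% of all genes in the S6K1 series, and 13.5% and 12.7% in the S6K1/S6K2 series. The only tested neighbour of the main cluster, 2610307P16Rik, was not called.

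Of the secreted phosphoproteins of mineralised tissue, which belong to the same gene family as caseins, 1 of 10 passed the filter in the S6K1 series and 2 in the S6K1/S6K2 series. Spp1, osteopontin, was higher with RAS in the S6K1/S6K2 libraries (2.67 on the log2 scale, SE 0.57, edgeR adjusted p = 0.00889). In the S6K1 series its value of 0.92 was called only with the block (edgeR adjusted p = 0.00365). The list medians were 0.92 and 1.17.

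On the receptor side, Prlr, the prolactin receptor gene, was not higher with RAS in either series. It was at 6.91 ± 2.90 CPM in S6K1 WT EV and 4.52 ± 0.998 in S6K1 WT RAS (SD, n = 3, log2 fold change -0.63, SE 0.31, edgeR adjusted p = 0.236). In the S6K1/S6K2 series it fell by 3.77 on the log2 scale (SE 0.76, edgeR adjusted p = 0.00666), from 12.8 to 84 CPM with EV to 1.77 to 4.19 CPM with RAS. The difference between the series was -3.15 (SE 0.85, edgeR adjusted p = 0.214), past no threshold.

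Of the 14 genes of the prolactin receptor pathway, edgeR called 2 higher and 1 lower in the S6K1 series and 1 higher and 4 lower in the S6K1/S6K2 series. Of all genes, 7.15% were called higher and 6.09% lower in the S6K1 series, and 13.5% and 12.7% in the S6K1/S6K2 series. Socs2, an inhibitor of the growth hormone receptor, rose by 0.93 (SE 0.18) and Ghr, that receptor, by 0.49 (SE 0.12) in the S6K1 series, where Stat3 fell by 0.71 on the log2 scale. Stat3 fell by 0.42 in the S6K1/S6K2 series. There Jak2, the receptor's kinase, rose by 0.70 (SE 0.14), and the inhibitor Socs1 fell by 1.83. Stat5a, the main transcription factor of prolactin signalling, was called lower only with the block, at -0.56 (edgeR adjusted p = 0.00609) and -0.66 (edgeR adjusted p = 0.0416). So were Cish in the S6K1 series and Stat5b in the S6K1/S6K2 series. The block of the S6K1/S6K2 series also spans the DKO libraries, whose numbers were not shown to pair with WT. In the S6K1 series the block called far more of all genes than the fit without it. Its calls there do not single out this pathway. The medians were -0.16 and -0.46.

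Of the mannose-6-phosphate receptors, Igf2r, the proliferin receptor, was at 1239 CPM in S6K1 WT EV and 1018 in S6K1 WT RAS and was not called. M6pr rose in the S6K1/S6K2 series by 0.57 (SE 0.13, edgeR adjusted p = 0.0105), with the block also in the S6K1 series (0.31, edgeR adjusted p = 0.00873), and the block called Igf2r higher in the S6K1/S6K2 series (0.90, edgeR adjusted p = 0.0466). The S6K1/S6K2 block also spans the DKO libraries, whose numbers were not shown to pair with WT. The medians of these receptors were 0.01 and 0.72.

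Among AP-1 and GATA regulators, 2 of 10 tested were called higher in the S6K1 series, and 4 higher and 1 lower in the S6K1/S6K2 series. Shares over all genes were 7.15% higher and 6.09% lower in the S6K1 series, and 13.5% and 12.7% in the S6K1/S6K2 series. Fosl1, an AP-1 subunit downstream of RAS, was at 13.4 ± 5.73 CPM with EV and 49.8 ± 7.46 with RAS in the S6K1 libraries (SD, n = 3; log2 fold change 1.88, SE 0.32, edgeR adjusted p = 0.00488), and at 8.69 ± 2.59 and 48.6 ± 9.13 CPM in the S6K1/S6K2 libraries (2.48, SE 0.23, edgeR adjusted p = 0.00018). Jun rose by 1.22 (SE 0.22) and 0.71 (SE 0.21), and Fosl2 and Gata3 rose in the S6K1/S6K2 series by 0.64 (SE 0.16) and 1.02 (SE 0.27). Nr3c1, the glucocorticoid receptor gene, fell there by 0.54. The list medians were 0.14 and 0.43. With the block the calls were 4 higher and 2 lower in the S6K1 series, Gata3 among the higher at 1.00 (edgeR adjusted p = 0.00136), and 3 higher and 1 lower in the S6K1/S6K2 series, where Jun was no longer called (edgeR adjusted p = 0.0547).

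Some trophoblast genes rose with RAS and others were at 0 in all libraries. Of 14 trophoblast factors 5 were tested, and edgeR called 3 higher in the S6K1 series and 4 in the S6K1/S6K2 series. These counts stand beside 7.15% and 13.5% of all genes called higher. Tfap2c, a factor of trophoblast stem cells, had 0 counts in all 6 EV libraries, 124 in S6K1 WT RAS and 62 in S6K1/S6K2 WT RAS. At 0 with EV, it could pass the filter only through RAS libraries, so its calls are no test of the rise. Eomes rose by 2.49 (SE 0.29) and 2.98 (SE 0.61), and Tead4 by 1.84 (SE 0.35) and 1.81 (SE 0.32). Cdx2, Elf5 and Esx1 had 0 counts in all 18 libraries, and Hand1, needed for giant cells, had at most 0.687 CPM in any library. The list medians were 1.84 and 1.81, and the list summed to 13.4 to 33.9 CPM in EV libraries and 38 to 77.3 CPM in RAS libraries.

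Of 32 trophoblast products, 7 and 6 were tested and 4 and 3 called higher, where 7.15% and 13.5% of all genes were. Hsd3b6, a steroid dehydrogenase of giant cells, rose by 5.65 (SE 0.57, edgeR adjusted p = 0.000408) and 4.82 (SE 1.12, edgeR adjusted p = 0.0123), and Pappa2, a placental protease, by 2.12 (SE 0.53) and 1.99 (SE 0.42). Serpinb9g, a placental serpin, had 1 count in S6K1 WT EV and 0 in S6K1/S6K2 WT EV, and was at 2.91 ± 1.58 and 2.1 ± 0.521 CPM with RAS. Serpinb9e was called in the S6K1 series, at 3.19 (SE 0.76). Tpbpa and Tpbpb, which mark the spongiotrophoblast, Synb, which encodes a syncytin, and Ctsq had 0 counts in all libraries. The medians were 2.12 and 1.85, and the block added Gjb2 as lower in the S6K1 series. The products summed to 15.9 to 62.6 CPM in EV libraries and 21.7 to 87.8 in RAS libraries, ranges that overlapped.

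Simple-epithelium genes rose in the same libraries. Of 10 luminal epithelial markers 7 were tested in each series. EdgeR called 5 and 6 of them higher, where 7.15% and 13.5% of all genes were. Krt18 was at 6.47 ± 2.55 CPM in S6K1 WT EV and 132 ± 24.7 in S6K1 WT RAS (SD, n = 3; log2 fold change 4.32, SE 0.32, edgeR adjusted p = 0.000127), and rose by 5.73 (SE 0.56, edgeR adjusted p = 0.000222) in the S6K1/S6K2 series. Krt8, its partner, rose by 5.45 (SE 0.49) and 4.12 (SE 0.78), Cldn4 by 5.0 (SE 0.47) and 7.04 (SE 0.80), and Cldn3 by 3.75 (SE 0.64) and 4.88 (SE 0.76). Epcam rose by 3.72 (SE 0.77) and 4.80 (SE 0.71), and Krt19 by 2.41 (SE 0.31) in the S6K1/S6K2 series. Cdh1 stayed at or below 1.29 CPM in every library and Esrp1 had 1 count in all. The medians were 3.75 and 4.80, and the block added Krt19 as higher and Krt7 as lower in the S6K1 series. The markers summed to 9.63 to 21.3 CPM in EV libraries and 88 to 241 CPM in RAS libraries. Over the 12 RAS libraries this sum had an r of 0.665 (rho 0.559) with the Prl3d sum and 0.707 (rho 0.566) with the Prl2c sum, or 0.603 and 0.402 without the 2 farthest. Within the S6K1 and S6K1/S6K2 series r was 0.466 and 0.674 with the Prl3d sum and 0.424 and 0.745 with the Prl2c sum. Its part in the members' levels was not tested.

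Of 10 fibroblast markers, edgeR called 1 higher (Lum, 1.07, SE 0.30) and 4 lower in the S6K1 series and 4 lower in the S6K1/S6K2 series. Among all genes 7.15% and 13.5% were called higher, and 6.09% and 12.7% lower. Col1a1 fell by 1.90 (SE 0.20) and 2.06 (SE 0.25) on the log2 scale, with Col1a2, Col3a1 and Pdgfrb also lower in both. The medians were -0.27 and -1.18, and with the block the calls were 3 higher and 4 lower, and 5 lower. Macrophage markers were not called in either RAS comparison, with 0 of 14 by edgeR and DESeq2 and 0 at an unadjusted p under 0.05. Their medians were 0.19 and -0.55, and the block called 5 higher and 1 lower in the S6K1 series and 2 lower in the S6K1/S6K2 series.

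In the loss comparisons few genes of these lists passed a test outside the macrophage markers. Without the block, edgeR called none of their genes in S6K1 KO or in S6K1/S6K2 DKO. Of 77 genes tested in KO, 23 had an unadjusted p under 0.05, of which 14 were macrophage markers, and DESeq2 called 2, both macrophage markers. Of 75 tested in DKO, 3 had an unadjusted p under 0.05 and DESeq2 called 0. With the block, 6 genes outside the macrophage markers were called in S6K1 KO RAS, where 0.549% of all genes were called higher and 3.61% lower. Among them were Eomes, lower by 0.82 on the log2 scale (SE 0.20, edgeR adjusted p = 0.0482), Gjb2, higher at 1.5, and Cldn4, higher at 1.31. Ptpn6, a phosphatase abundant in blood cells, was lower at -2.16, as 1 of 2 genes of the prolactin receptor pathway called lower. In S6K1/S6K2 DKO RAS the macrophage markers summed to 72.7 to 236 CPM against 176 to 1001 CPM in WT RAS, with a median of -2.02 and 2 of 14 at an unadjusted p under 0.05. The block called 1 of the 14 lower there.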

How the data were processed

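RNA-seq was made from 18 MEF libraries by stranded single-end sequencing of mRNA. The authors deposited raw read counts per gene for all 18 libraries in 1 table of 55401 identifiers, of which 25336 had no count and 32589 carried a symbol (99.1% of counts). The published methods name CASAVA, TopHat, the mm9 genome and HTSeq, whereas the submitters' processing notes name mm10, STAR 2.7.1a and DESeq2 1.28.1; which made the deposited counts, the annotation and the handling of multi-mapped reads are not given in the sources used here. Total counts were 8319445 to 14402442 per library, so a floor of 3 counts was used for values at 0.

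The counts were tested in R 4.3.3 with edgeR 4.0.16 (quasi-likelihood test, two-sided, TMM normalisation, filterByExpr with a minimum count of 10, Benjamini-Hochberg adjustment over all tested genes, threshold 0.05), on the 9 libraries of a series, or on all 18 for differences between series. Each series may be a batch of its own, so series and batch cannot be told apart. The fit was tested on simulated data with 200 changed genes. Alternatives were DESeq2 1.42.0, other size factors, no filter, all 18 libraries in 1 fit, sums over every Prl2c or Prl3d identifier, the replicate number as a block, and leaving out each library (for pooled folds and family shares, chosen after seeing the data). Deviations of same-numbered libraries from their group means correlated at 0.655, 0.422 and 0.646 (RAS against EV, S6K1 series), 0.381, 0.304 and 0.301 (RAS against EV, S6K1/S6K2 series) and 0.672, 0.373 and 0.599 (KO against WT), so the numbers were taken to pair these libraries. The published methods describe littermate WT and KO embryos for S6K1 but tie no library number to a mother, so the pairing rests on the numbers in the labels and this check. Block fits of the S6K1/S6K2 series include the DKO libraries, whose numbers were not shown to pair, so its block calls rest partly on that pairing.

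The 7 members and the gene lists were chosen with earlier results of these data known. All members and sums, every other prolactin gene above 10 counts and, per list, up to 4 called genes with the largest change were named; other named genes were chosen after their values were seen.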

Additional observations from a re-analysis of the deposited data

How the results depend on the processing

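Of 482 values recomputed for the members and sums, 466 kept their direction and their side of the threshold. All 90 and 101 values of the 2 RAS comparisons did. The members were listed for that contrast and were near 0 with EV, so those values could hardly come out otherwise. They are no support for the rise. In the loss comparisons every kept value was one that was not called in the main fit. The replicate block changed no call of a member other than Csn3 in S6K1 KO. Csn3 in S6K1 KO RAS was called with the block (2.28, edgeR adjusted p = 0.0164), without a filter on low counts (2.01, edgeR adjusted p = 0.0394) and without S6K1 WT RAS replicate 3 (3.26, edgeR adjusted p = 0.00169), and ranged from 1.63 to 3.26 when single libraries were left out. In every other setting, DESeq2 among them, it was not called. For S6K1/S6K2 DKO RAS the leave-one-out ranges were -0.28 to 1.74 for Csn3 (turned without DKO RAS replicate 1), -1.94 to 0.38 for the Prl3d sum, -1.57 to 0.36 for Prl3d2 and -2.58 to 0.66 for Prl3d3 (all 3 turned without WT RAS replicate 1), and -0.98 to 0.56 for Prl2c3, which also turned, to 0.04, without DKO RAS replicate 3. The difference of RAS effects on the Prl3d sum was -0.0516 with the block and -1.24 to 2.69 with single libraries left out, and that of loss effects -1.49 to 0.82. The causes were not tested.

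Counts of all called genes moved more. With RAS, the 1859 genes called of 14036 tested in the S6K1 series became 5085 with the block. The block calls of single list genes there stand beside that share. With a library left out they were 1043 to 1818 (1136 without EV replicate 2, 1185 and 1043 without WT RAS replicates 1 and 2). The 3646 genes of the S6K1/S6K2 series became 2050 to 4199 (2316 without EV replicate 2, 2050 and 2195 without WT RAS replicates 2 and 3). For KO, 1 gene became 63 with DESeq2, 108 without a filter, 583 with the block, 4 in 1 fit of all libraries and 0 to 22 with a library left out (22 without WT RAS replicate 3). For DKO, where the numbers were not shown to pair the libraries (correlations 0.287, 0.424 and -0.0287), 3 genes became 10, 11, 8, 7 and 1 to 2 in that order. The difference of RAS effects, 0 genes by edgeR with 1819 at an unadjusted p under 0.05, became 143 with DESeq2, 204 without a filter, 58 with the block and 0 to 290 with a library left out (290 without S6K1/S6K2 WT EV replicate 3). Low counts limit the Prl2c genes, all EV levels, and Prl3d1 and Prl3d3 in S6K1/S6K2 DKO RAS.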
